A study of Mus musculus with 12 samples.

Results

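A group of 76 genes, of 18193 with a gene name on the arrays, was brightest in cardiopoietic cells and dimmer at every other stage of embryonic stem cell cardiogenesis, the later cardiomyocyte stage included. Murine CGR8 embryonic stem cells were sampled at 4 stages, with 3 Affymetrix Mouse 430 2.0 arrays each from samplings that the study describes as independent. ES-LIF(+) cells grew in 7.5% serum with leukemia inhibitory factor (LIF), which holds mouse stem cells undifferentiated, and ES-LIF(-) cells had been without it for 48 h. Cardiopoietic cells (CP), which the study presents as committed cardiac precursors, came from stem cells primed with a cocktail of BMP, TGFβ, IL13, IL3, IGF1, VEGF, EGF, FGF and IL6 and then spent 5 days with 30 ng/ml TNFα in medium of 3% serum. Cardiomyocytes (CM) came from the same priming and then spent 9 days in medium of 20% serum. CP and CM were enriched on Percoll density gradients and the stem cells were not, and the gradient for CP was of lower density than that for CM. Stage, time in culture, TNFα, serum and purification thus cannot be told apart in any comparison that involves CP or CM, the difference between CP and CM included. All cells descend from one stem cell line.

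Each gene was read from a single probe set, the short stretch of transcript that the array samples, and the brightest one naming that gene alone was used. A gene belonged to the group when its mean log2(signal + 16) in CP lay at least 1 above its mean in each of the other 3 stages and its mean CP signal was 500 or more. The genes were thus chosen by their CP, CM and stem cell signals, and every comparison of CP with another stage is given as a description, with no test. The distance of the CP mean from the next highest stage is called the margin below. The selection did not fix 2 differences, and these were tested, CM against ES-LIF(+) and ES-LIF(-) against ES-LIF(+). It did bound them, since the other 3 stages all had to lie at least 1 below CP. Shares over the group and over all tested genes are therefore not on an equal footing. A gene passed when the fold exceeded 1.5 and the adjusted p of limma, a linear model with a pooled spread, was under 0.05. Signals are relative brightness values on a linear scale and were compared for a gene across stages. Probe sets differ in brightness, so a higher signal of one gene than of another is not a difference in transcript level, and sums over a list compare the same probe sets across arrays.

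The genes named below fall into a few families with known roles. Small leucine-rich proteoglycans such as decorin and lumican coat collagen fibrils and set their spacing, and fibroblasts and other mesenchymal cells secrete them. Mesothelium, the epithelium that lines body cavities and gives rise to the epicardium of the heart, is marked by mesothelin and uroplakins. Stromelysins are secreted metalloproteinases that cut matrix proteins, and their genes are textbook targets of inflammatory cytokines.

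The CP label was set against marker lists. The study itself judged CP by microscopy of cardiac transcription factors in the nucleus, and it stated a degree of purity for CP and CM. Sums of RNA signals are a different measure from these. The 23 measured genes of the cardiac sarcomere and cardiac hormones summed to 2395 to 2529 signal units on the ES-LIF(+) arrays and 4839 to 5195 on the CP arrays. They summed to 256298 to 282051 on the CM arrays, so their summed signal was still low in CP. Of the 23, 5 lay above the array median on all 3 ES-LIF(+) arrays, 11 in CP and all 23 in CM. Tnnt2 among them was above ES-LIF(+) by 4.35 log2 units in CP and 10.11 in CM. The 28 measured fibroblast and mesenchyme markers summed to 15204 to 18926 in ES-LIF(+), 154161 to 167291 in CP and 92646 to 101433 in CM, and 25 of the 28 lay above the array median on all 3 CP arrays and likewise in CM. The 23 mesothelial and epicardial markers summed to 16839 to 22580 in ES-LIF(+), 35580 to 36018 in CP and 33290 to 33738 in CM. The 6 mesothelial genes of the group summed to 15979 to 16807 in CP and 4642 to 5303 in CM. The other 17 summed to 18773 to 19665 in CP and 28233 to 29012 in CM. Among those 17, Krt8, Krt18, Krt19, Gpc3, Podxl, Aldh1a1 and Tbx18 were brighter on every CM array than on any CP array. Cdh1, Lrrn4, Gpm6a, Efemp1, Wt1 and Rspo1 were dimmer on every CM array than on any CP array, and the rest overlapped. The 24 measured pluripotency genes summed to 153783 to 158922 in ES-LIF(+) and 103924 to 113757 in ES-LIF(-). They summed to 109395 to 117187 in CP and 32555 to 41464 in CM, so that the CP sums overlapped those of ES-LIF(-). All 24 lay above the array median on every array of each stage, CM included, so that count does not set CP apart. The 18 extraembryonic endoderm markers summed to 1749 to 2306 in ES-LIF(+), 6558 to 7362 in CP and 8771 to 10818 in CM. In RNA from a mixed culture, fewer cells of a type and less RNA per cell cannot be told apart, and the part that cell makeup had in the values below was not tested. Macrophage and leukocyte markers summed to 3360 to 4093 in CP and 4115 to 4283 in CM over 19 genes.

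The margins ran between 1.02 and 4.60 on the log2 scale, with a median of 1.59. The standard deviation of log2 values over the CP arrays had a median of 0.0894 in these genes, and of 0.135 over all 13145 genes tested. These medians are not on an equal footing, since the group was chosen for a bright CP signal and the tested genes were not. Genes of matched brightness were not compared, so the lower median does not show that the group was unusually reproducible. The next brightest stage after CP was CM for 64 genes, ES-LIF(-) for 6 and ES-LIF(+) for 6. In ES-LIF(+) the mean signal of 38 of the 76 genes was under the median of its arrays, where signals are close to background and fold changes are least precise, and 10 genes were that dim in CM. The heatmap of all 76 genes orders them by margin.

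**Figure D1:**
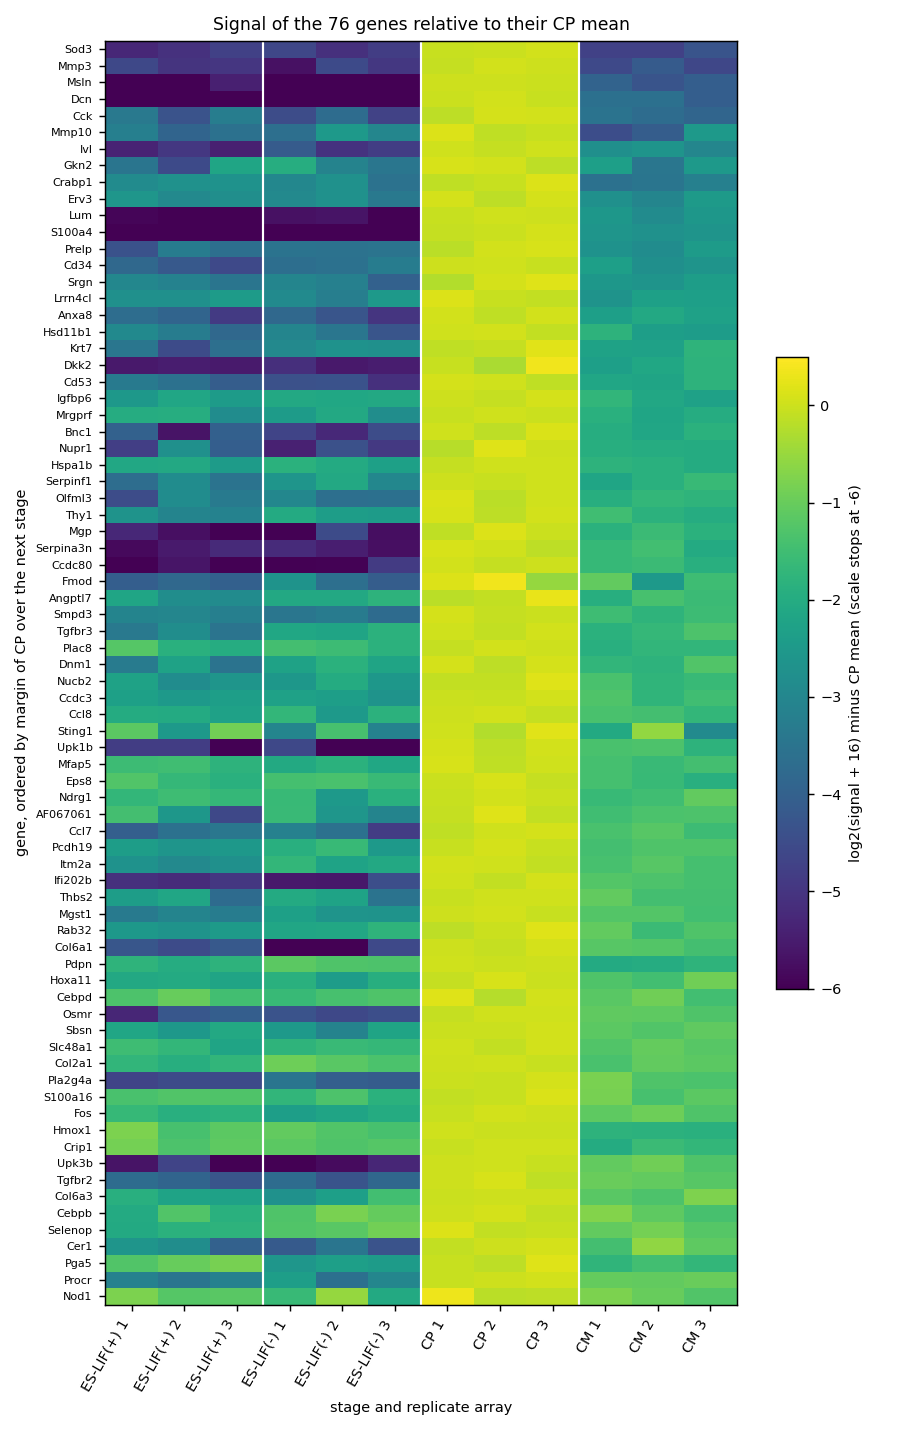
Each row is 1 of the 76 genes, ordered by margin, and each column is 1 of the 12 arrays. Colour gives log2(signal + 16) minus the gene's mean over the 3 CP arrays. The CP columns are brightest in every row by selection, and the CM columns lie between CP and the stem cell stages for most genes, while Mmp3, Cck and Mmp10 in the top rows have CM values within or near the stem cell range.

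The mesothelial list held 6 genes of the group, with margins that ran between 1.09 for Upk3b and 4.10 for Msln. Msln encodes mesothelin, a surface glycoprotein of mesothelium. Its signals were 17.4, 7.9 and 38.3 in ES-LIF(+), 7.3, 9 and 20.1 in ES-LIF(-), 2348, 2349 and 2271 in CP and 137, 102 and 124 in CM. The CM arrays thus stood above all 6 stem cell arrays while reading 19.2-fold below the CP mean, and the CM to ES-LIF(+) difference passed the test (log2 difference 1.95 ± 0.30 (SE), adjusted p = 3.4e-05). Upk3b and Upk1b, membrane proteins of the urothelial plaque that mesothelium also makes, kept more of their signal. Upk3b read 64.4, 142 and 31.7 in ES-LIF(+), 7.3, 55.7 and 87.7 in ES-LIF(-), 4047, 4144 and 3928 in CP and 1926, 2153 and 1639 in CM. Of its rise on the log2 scale between ES-LIF(+) and CP, 80.5% was still present in CM, the highest share in the group. Upk1b gave 128, 128 and 16.6 in ES-LIF(+), 153, 25.6 and 28.8 in ES-LIF(-), 4287, 3638 and 4230.1 in CP and 1544, 1619.6 and 1146 in CM, with 72.9% kept.

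The other mesothelial members were Bnc1, Krt7 and Pdpn. Bnc1 encodes basonuclin 1, a zinc finger protein of stratified epithelia and germ cells. It averaged 1079 ± 106 in CP and 262 ± 28.3 in CM (SD, n = 3 each), and its CM arrays were above its ES-LIF(+) arrays (log2 difference 2.56 ± 0.37 (SE), adjusted p = 1.67e-05). Krt7, a simple epithelial keratin, averaged 942 ± 130.2 in CP and 207 ± 46.2 in CM, and was higher in CM than in ES-LIF(+) by 1.76 ± 0.26 (adjusted p = 1.96e-05). Pdpn, the mucin-type membrane glycoprotein podoplanin, behaved differently from these. It read 1182, 1033 and 1167 in ES-LIF(+), 1859, 1651 and 1646 in ES-LIF(-), 4181, 3996 and 4083 in CP and 999.7, 1019 and 1186 in CM. The CM and ES-LIF(+) arrays overlapped (log2 difference -0.08 ± 0.09 (SE), adjusted p = 0.444), while the ES-LIF(-) arrays were above both.

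The rest of the mesothelial list was mixed. Of its 23 measured genes, 10 were induced in CP, meaning at least 1 log2 unit above both stem cell stages with a CP signal of 500 or more, and 6 of these 10 were at least 1 log2 unit lower in CM. Of all 18193 genes with a gene name, 620 were induced in CP, and the induced counts of each list are to be read against this. Over these 620 genes the share that was lower in CM by that much was 12.3%, or 76 genes. Below, an induced gene is called transient when it meets that second condition, kept when its CM mean was within 1 log2 unit of CP, and still rising when it was at least 1 above. Aldh1a1, Lrrn4, Gpm6a and Efemp1 were kept. Aldh1a1, a retinaldehyde dehydrogenase, averaged 2185 ± 134 in CP and 2955 ± 451 in CM. Wt1, the transcription factor that defines mesothelium and epicardium, was not induced, with 181 ± 74.1 in ES-LIF(+), 434 ± 119 in ES-LIF(-), 242 ± 12.2 in CP and 170 ± 19.8 in CM. Muc16, another defining mesothelial gene, averaged 55.8 ± 18.5 in ES-LIF(+), 42.9 ± 20.6 in ES-LIF(-), 110 ± 23.6 in CP and 98.5 ± 56.5 in CM, each mean below the median of its arrays. Wt1 was thus brightest after LIF withdrawal, and its CP and CM means were below that level. Tbx18 of the list went the other way from the transient genes, with 108, 107 and 73.4 in CP and 754, 649 and 631 in CM. Aldh1a2 was dim, with 41.1, 77.1 and 36.2 in CP and 87.1, 63.4 and 20.4 in CM.

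Matrix genes included 4 small leucine-rich proteoglycans, Dcn, Lum, Prelp and Fmod. Dcn, the gene of decorin, had the largest difference of the group between CP and ES-LIF(+), 8.64 on the log2 scale. Its signals were 70.4, 11.1 and 17.4 in ES-LIF(+), 119, 97.6 and 111 in ES-LIF(-), 16985, 17672 and 16645 in CP and 1392, 1389 and 1006 in CM. In CM decorin was 13.5-fold below CP and still above every stem cell array (log2 difference 4.89 ± 0.29 (SE), adjusted p = 7.96e-10 for CM against ES-LIF(+)). Lum, the gene of lumican, gave 65.2, 10.7 and 42 in ES-LIF(+), 78.6, 81.8 and 46.3 in ES-LIF(-), 4754, 5027 and 4953 in CP and 814, 655 and 816 in CM. Both genes kept a similar part of their log2 rise in CM, 56.5% for Dcn and 59.7% for Lum. Prelp, which anchors basement membranes to connective tissue, averaged 1084 ± 103 in CP and 159.5 ± 26.7 in CM, and Fmod, fibromodulin, 566 ± 169 in CP and 172 ± 83.7 in CM. Fmod had the widest spread of the group over the CP arrays, with 616, 704 and 378.

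Mgp, an inhibitor of calcification, read 2228, 2668 and 2359.6 in CP and 659.8, 798 and 655 in CM and was higher in CM than in ES-LIF(+) by 4.05 ± 0.38 (adjusted p = 1.23e-07). Thbs2, a matricellular protein that restrains angiogenesis, averaged 793 ± 20.9 in CP and 311 ± 52.8 in CM. Mfap5, a microfibril component, averaged 536 ± 44.3 in CP and 182 ± 12.2 in CM, and its CM to ES-LIF(+) difference did not pass the test (log2 difference 0.14 ± 0.17 (SE), adjusted p = 0.502). Of 52 measured proteoglycans and matrix glycoproteins, 25 were induced in CP, where 620 of all 18193 named genes were. Of the 25, 7 were transient. The kept 18 included Bgn, which averaged 14650 ± 1058 in CP and 8734 ± 959.5 in CM, Ogn with 1446 ± 56.7 in CP and 802 ± 101 in CM and Podn, of the same leucine-rich family, with 584 ± 59 in CP and 834 ± 50.7 in CM. Aspn, also of that family, averaged 354 ± 2.06 in CP and 107 ± 30.1 in CM and was under the signal limit.

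Among 28 measured collagens 16 were induced in CP, and 3 of these passed the limit for CM. Col6a1, a chain of the beaded filament collagen VI, averaged 2354 ± 117 in CP and 956 ± 84.5 in CM. Col6a3, another of its chains, averaged 676 ± 7.41 in CP and 317 ± 70 in CM. Their partner chain gene Col6a2 was induced and kept. Col2a1, the cartilage collagen, averaged 749 ± 21.6 in CP and 322 ± 37.1 in CM. The fibrillar genes Col1a1, Col1a2 and Col3a1 were all kept. Ccdc80, a secreted matrix-binding protein that is in no list, gave 3773, 3429.6 and 3611 in CP and 1134, 1209 and 957 in CM. Olfml3, a secreted olfactomedin-domain protein, gave 772, 628 and 719 in CP and 174, 204 and 194 in CM.

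**Figure D2:**
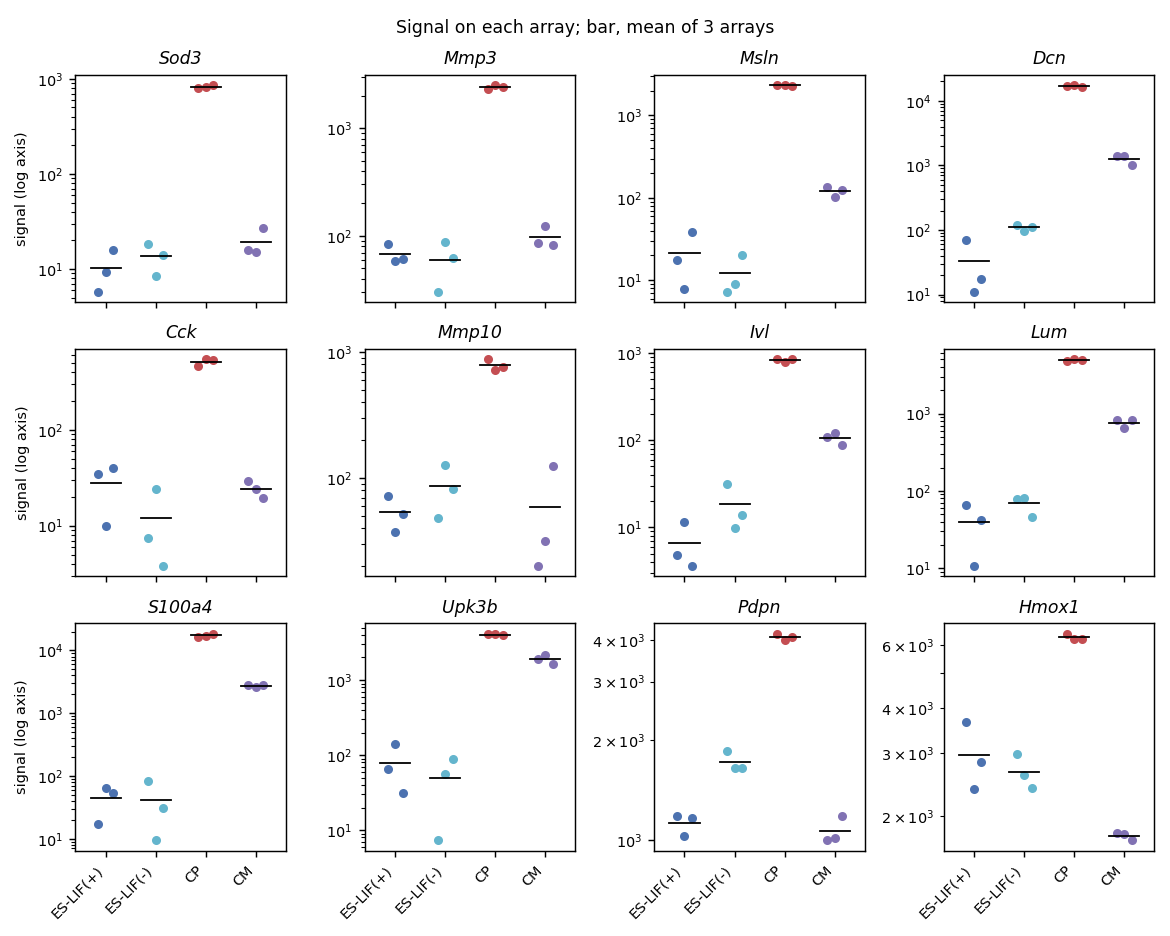
Signal of 12 genes on a log axis, with 1 point per array and a bar at the mean of the 3 arrays of a stage. Sod3, Mmp3, Cck and Mmp10 have CM points that overlap the stem cell points, Msln, Dcn, Ivl, Lum, S100a4 and Upk3b have CM points between CP and both stem cell stages, and Hmox1 has CM points below all stem cell points.

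The stromelysin genes Mmp3 and Mmp10 had among the sharpest peaks. Mmp3, stromelysin 1, read 83.5, 58.8 and 60.9 in ES-LIF(+), 30.4, 88.1 and 62.4 in ES-LIF(-), 2285, 2516 and 2408 in CP and 85.9, 122 and 82.3 in CM. The CM arrays overlapped those of both stem cell stages (log2 difference 0.43 ± 0.27 (SE), adjusted p = 0.172 for CM against ES-LIF(+)). Mmp10, stromelysin 2, read 72, 37.3 and 51.7 in ES-LIF(+), 48.6, 128 and 82.3 in ES-LIF(-), 878, 719.9 and 763 in CP and 20.1, 31.5 and 124 in CM, and again the difference of CM from ES-LIF(+) did not pass the test (log2 difference -0.13 ± 0.43 (SE), adjusted p = 0.799). Of 20 measured metalloproteinases and inhibitors, 8 were induced in CP. Mmp2, gelatinase A, averaged 5575 ± 244 in CP and 5301 ± 404 in CM, and Mmp14, its membrane-bound activator, 3209 ± 68.8 in CP and 2965 ± 146 in CM. The inhibitors Timp1, Timp2, Timp3 and Reck were kept as well. Only Mmp3 and Mmp10 of these 8 passed the limit for CM.

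The start regions of Mmp3, Mmp10 and Ivl are shown because these members with large margins share a short motif. They are RefSeq windows of 300 bases on GRCm38.p6, 250 before and 50 after the annotated start, and capitals mark the AP-1 motif TGANTCA.
Mmp3 promoter (chr9:7445572-7445871, plus strand): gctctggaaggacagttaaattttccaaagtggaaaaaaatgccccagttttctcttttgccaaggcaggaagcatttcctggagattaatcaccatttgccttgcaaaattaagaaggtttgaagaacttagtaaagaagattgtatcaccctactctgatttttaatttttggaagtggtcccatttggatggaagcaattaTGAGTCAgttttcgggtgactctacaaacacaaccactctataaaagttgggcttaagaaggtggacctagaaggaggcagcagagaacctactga
Mmp10 promoter (chr9:7502092-7502391, plus strand): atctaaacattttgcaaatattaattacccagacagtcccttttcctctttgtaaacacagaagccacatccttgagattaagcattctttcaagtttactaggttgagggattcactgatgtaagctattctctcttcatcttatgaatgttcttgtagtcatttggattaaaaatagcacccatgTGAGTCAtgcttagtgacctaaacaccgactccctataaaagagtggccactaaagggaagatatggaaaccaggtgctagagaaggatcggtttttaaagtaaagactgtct
Ivl promoter (chr3:92573686-92573985, minus strand): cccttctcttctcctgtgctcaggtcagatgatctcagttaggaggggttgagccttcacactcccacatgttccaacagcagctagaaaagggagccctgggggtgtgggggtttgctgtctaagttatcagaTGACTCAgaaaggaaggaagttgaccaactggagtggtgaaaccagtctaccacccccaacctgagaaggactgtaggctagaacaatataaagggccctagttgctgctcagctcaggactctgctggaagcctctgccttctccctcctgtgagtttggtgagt
AP-1 is the dimer that the Fos and Jun proteins form. Fos was among the 76 genes, while Jun and Fosl2 of the Fos family were induced in CP and kept. Any role of AP-1 in the course of these genes was not tested. In Mmp3 the motif begins 46 bases before the start, in Mmp10 63 and in Ivl 116, and each of the 3 windows also holds TATAAA, in Mmp10 and Ivl 29 bases before the start. A promoter window was on hand for 54 of the 76 genes (62 windows), and 9 windows held TGANTCA, 14.5%, against 7.81% of all 32851 windows. The other 6 genes with it were AF067061, Col6a1, Osmr, Procr, S100a16 and Sbsn. TATAAA was in 25.8% of the group's windows and 13.6% of all, and the C/EBP motif TTGCNNAA in 16.1% and 10.8%, each counted on both strands. These are descriptions of letters in a short window and no measure of binding.

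The serpin family was represented by 2 genes. Serpinf1 encodes pigment epithelium-derived factor, an antiangiogenic serpin that does not inhibit proteases. Its signals were 177, 331 and 198 in ES-LIF(+), 384, 565 and 295 in ES-LIF(-), 2470.5, 2380.2 and 2488 in CP and 528, 654 and 784 in CM. Serpina3n, an acute phase serpin, read 5.9, 11.1 and 17 in ES-LIF(+), 17.9, 12.2 and 7.3 in ES-LIF(-), 1319.6, 1258 and 1109 in CP and 381, 434 and 289 in CM, and CM kept 69% of its log2 rise. Plat, Serpinh1, Serpinb6a and Serpinb9 of that list were induced and kept.

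Cell surface genes of the group included Cd34, Thy1, Pcdh19 and Cd53. Cd34, a sialomucin of progenitor and endothelial cells, read 129, 96.8 and 69.7 in ES-LIF(+), 145, 155 and 196 in ES-LIF(-), 2041, 2071 and 1974 in CP and 390.5, 283 and 311 in CM, so that each later stage was separate from ES-LIF(+). Thy1, a surface glycoprotein of fibroblasts and thymocytes, gave 301, 221 and 212 in ES-LIF(+), 478, 367 and 352 in ES-LIF(-), 2127, 1780.3 and 2042 in CP and 688, 546 and 487 in CM. Both were higher in CM than in ES-LIF(+), Cd34 by 1.61 ± 0.19 (adjusted p = 1.84e-06) and Thy1 by 1.18 ± 0.16 (adjusted p = 8.94e-06). Of the 21 measured endothelial markers Cd34 was the 1 gene induced in CP. Pcdh19, a protocadherin, averaged 615 ± 36.1 in CP and 234 ± 14.4 in CM, and Cd53, a leukocyte tetraspanin, 688 ± 52.4 in CP and 155 ± 28.1 in CM.

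Receptors and antagonists of the TGFβ and WNT families were represented. Tgfbr2, the type II TGFβ receptor, read 258, 221 and 167 in ES-LIF(+), 256, 163 and 233 in ES-LIF(-), 3565, 3810.1 and 3229 in CP and 1786, 1686 and 1527 in CM. Tgfbr3, betaglycan, read 103, 157 and 93.2 in ES-LIF(+), 266, 248 and 327 in ES-LIF(-), 1231, 1139 and 1261 in CP and 325, 367 and 478 in CM. Signals of Tgfbr1, the type I receptor, were 1418 ± 90.6 in ES-LIF(+), 1405 ± 14 in CP and 1494 ± 72.8 in CM and met no limit. Cer1, a secreted antagonist of Nodal and BMP, averaged 572 ± 38.8 in CP and 278 ± 89.3 in CM, and Inhba of the same list, the activin A subunit, was still rising with 1210 ± 143 in CP and 3209 ± 605 in CM. Of 39 measured genes of the TGFβ and BMP pathway 11 were induced in CP and 3 of them transiently. In CM against ES-LIF(+), 27 of the 37 tested genes of this pathway rose and 3 fell, where 25.8% of all tested genes rose and 23.9% fell.

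Dkk2, a secreted WNT modulator, was close to background in the stem cells, with 2.2, 3.2 and 2.4 in ES-LIF(+), 8.7, 2.3 and 3.3 in ES-LIF(-), 821, 670.3 and 1079.7 in CP and 154, 179 and 232 in CM. Dkk3, its relative, was still rising in CM. Igfbp6, which binds IGF2, averaged 579.8 ± 30.6 in CP and 131 ± 29.4 in CM and its CM to ES-LIF(+) difference did not pass the test (log2 difference 0.34 ± 0.20 (SE), adjusted p = 0.154). Osmr, the oncostatin M receptor, read 17.3, 54.4 and 62.5 in ES-LIF(+), 1247, 1329.9 and 1332 in CP and 609, 590.4 and 521 in CM. Procr, the endothelial protein C receptor, read 93.1, 71.4 and 92.6 in ES-LIF(+), 912, 956 and 980.4 in CP and 451, 446 and 475 in CM. These receptors kept 74.3% and 68.4% of their log2 rise in CM. Hoxa11, a posterior homeobox gene, averaged 590.2 ± 40.5 in CP and 246 ± 52.9 in CM.

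Inflammatory genes formed a smaller set. Ccl7 and Ccl8 encode monocyte chemoattractants. Ccl7 averaged 810.4 ± 59.8 in CP and 306 ± 40.8 in CM, and Ccl8 620.1 ± 26.1 in CP and 209 ± 25.3 in CM. Of 39 measured chemokines and cytokines 6 were induced in CP, among them Cxcl12, the ligand of Cxcr4, which was still rising at 2022 ± 147 in CP and 11480 ± 1383 in CM. Pla2g4a, the cytosolic phospholipase that releases arachidonic acid, read 106, 119 and 117 in ES-LIF(+), 265, 173 and 163 in ES-LIF(-), 3029, 2966 and 3269 in CP and 1742, 1262 and 1199.9 in CM, and Hsd11b1, which regenerates active glucocorticoid, averaged 822 ± 43 in CP and 170.5 ± 45.8 in CM. Ptgs2 and Ptges, the next enzymes of prostaglandin synthesis, were induced and kept. Nod1, an intracellular sensor of bacterial peptidoglycan, had the smallest margin of all, 1.02. Sting1, the adaptor of the cytosolic DNA response, was uneven over the arrays outside CP, with 248, 88.9 and 302 in ES-LIF(+) and 124, 379 and 63 in CM.

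Transcription factors of the acute response were Fos, Cebpb and Cebpd. Fos read 342, 283 and 302 in ES-LIF(+), 203, 227 and 263 in ES-LIF(-), 1072, 1145 and 1100.4 in CP and 502, 569 and 444 in CM, and the CM arrays lay above the ES-LIF(+) arrays (log2 difference 0.68 ± 0.13 (SE), adjusted p = 0.000358). Cebpb, a leucine zipper factor of inflammation and adipogenesis, gave 654, 1111 and 730.5 in ES-LIF(+), 1104, 1548 and 1304 in ES-LIF(-), 2728, 2890.3 and 2532 in CP and 1655, 1246 and 1028 in CM. Its relative Cebpd gave 423, 528 and 379 in ES-LIF(+), 339.8, 397 and 429 in ES-LIF(-), 1209, 910.2 and 1121 in CP and 473, 559 and 377 in CM. Cebpd in CM overlapped ES-LIF(+) (log2 difference 0.08 ± 0.16 (SE), adjusted p = 0.699), and Cebpb in CM was higher by 0.66 ± 0.19 (adjusted p = 0.00565). In the list of NF-κB pathway genes and TNF targets, 8 of 35 measured genes were induced in CP, of which Tnfaip2, Vcam1, Ptgs2, Ptges, Ier3 and Sqstm1 were kept. None of the 53 measured mesoderm and mesenchyme transcription factors was transient, 6 of 8 induced ones being kept and 2, Hand1 and Gata6, still rising.

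Genes of redox and stress handling included the largest margin. Sod3, the extracellular superoxide dismutase, read 5.8, 9.3 and 15.7 in ES-LIF(+), 18.5, 8.5 and 13.9 in ES-LIF(-), 809, 814 and 864 in CP and 15.7, 15.3 and 26.9 in CM. Its margin was 4.60, and its highest signal on any array outside CP was 26.9. The intracellular dismutases did not share this course, with 13150 ± 514 in CP and 9054 ± 727 in CM for Sod1, and 4475 ± 497 in CP and 4288 ± 358 in CM for Sod2. Hmox1, heme oxygenase 1, gave 3658, 2380.3 and 2832 in ES-LIF(+), 2984, 2601 and 2404 in ES-LIF(-), 6444, 6219 and 6219 in CP and 1800.2, 1781 and 1712 in CM. The CM arrays were below every stem cell array, a difference of -0.72 ± 0.12 from ES-LIF(+) (adjusted p = 6.1e-05). Slc48a1, a heme transporter, averaged 1212 ± 64.9 in CP and 534 ± 46.1 in CM. Mgst1, a microsomal glutathione transferase, averaged 3573 ± 125 in CP and 1429 ± 128 in CM. Selenop, the plasma selenium carrier, averaged 2617 ± 252 in CP and 1263 ± 153 in CM.

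Hspa1b, an inducible HSP70 gene, read 701, 716 and 552 in ES-LIF(+), 850, 743 and 608 in ES-LIF(-), 2945, 3139 and 3149 in CP and 869, 832 and 750 in CM, and its probe set may also read near-identical HSP70 transcripts. The CM to ES-LIF(+) difference of Hspa1b had an adjusted p of 0.0342 and a size of 0.32 ± 0.12, inside the fold limit of 1.5. Nupr1, a chromatin protein induced by stress, read 3737, 4840.3 and 4259 in CP and 1116, 1067 and 1059 in CM, and Ndrg1, a gene induced by hypoxia, 1417, 1533 and 1446 in CP and 462, 512 and 690.5 in CM. Nupr1 was higher in CM than in ES-LIF(+) by 1.90 ± 0.36 (adjusted p = 0.000226), and the difference of Ndrg1 did not pass (log2 difference 0.23 ± 0.18 (SE), adjusted p = 0.278).

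Several members are better known from gut and skin. Cck, the gene of the gut and brain peptide cholecystokinin, read 34.3, 9.9 and 39.6 in ES-LIF(+), 7.5, 24.4 and 3.8 in ES-LIF(-), 457, 543 and 528 in CP and 29.3, 24.4 and 19.3 in CM. Gkn2, a gastrokine of stomach mucosa, read 55.6, 18.2 and 159.5 in ES-LIF(+), 189, 78.1 and 56.8 in ES-LIF(-), 835, 805 and 708 in CP and 142, 56.6 and 126 in CM. The CM arrays of both lay within the stem cell range, Cck at -0.06 ± 0.42 (adjusted p = 0.916) and Gkn2 at 0.64 ± 0.50 (adjusted p = 0.269) relative to ES-LIF(+). Ivl, involucrin of the cornified envelope of keratinocytes, read 4.8, 11.5 and 3.6 in ES-LIF(+), 31.8, 9.8 and 13.9 in ES-LIF(-), 848, 795 and 848 in CP and 109.7, 119.5 and 88 in CM. Sbsn, suprabasin of the upper epidermis, averaged 869 ± 28.7 in CP and 379.5 ± 25.5 in CM, and Pga5, a pepsinogen, 862 ± 98.7 in CP and 266 ± 29.5 in CM.

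Other members included small calcium-binding and retinoid-binding proteins. S100a4, a small calcium-binding protein linked to cell motility, read 17.2, 63.5 and 53 in ES-LIF(+), 82.1, 9.4 and 30.9 in ES-LIF(-), 16642, 17102 and 18484 in CP and 2811, 2633 and 2778 in CM, and its rise in CM over ES-LIF(+) was the largest of the 76 genes (log2 difference 5.60 ± 0.37 (SE), adjusted p = 1.98e-09). S100a16 of the same family averaged 1136 ± 92 in CP and 519.5 ± 106 in CM. Crabp1, which binds retinoic acid in the cytosol, read 415, 459.7 and 470.1 in ES-LIF(+), 378, 461 and 254 in ES-LIF(-), 2890, 3013 and 3502 in CP and 247, 266 and 331 in CM, so that cardiomyocytes were below ES-LIF(+) (log2 difference -0.65 ± 0.17 (SE), adjusted p = 0.00365). Crip1, a LIM domain protein first described in intestine, read 3254, 2398 and 2755 in ES-LIF(+), 2689, 2448 and 2551 in ES-LIF(-), 5804, 6038 and 6050.4 in CP and 1465, 2006 and 1837 in CM and also fell in CM relative to ES-LIF(+) (log2 difference -0.66 ± 0.11 (SE), adjusted p = 8.44e-05). Itm2a, a membrane protein of the BRICHOS family, gave 1298, 1081 and 1255 in ES-LIF(+), 2581, 1805 and 2004 in ES-LIF(-), 8855, 8567 and 7974 in CP and 3228, 3677 and 3166 in CM. Anxa8, a membrane-binding annexin, read 2132, 1871 and 2117 in CP and 389, 475 and 406 in CM.

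The remaining members have varied roles. Srgn, the proteoglycan of secretory granules, averaged 834 ± 126 in CP and 131 ± 14.3 in CM, and Smpd3, a neutral sphingomyelinase, 1072 ± 60.4 in CP and 340.4 ± 31.3 in CM. Plac8, Eps8, an actin regulator downstream of the EGF receptor, and Mrgprf, an orphan G protein-coupled receptor, did not pass the test of CM against ES-LIF(+), with differences of -0.08, -0.05 and 0.25. Erv3 and Lrrn4cl did not pass it either, at 0.01 and 0.21. Dnm1, a dynamin of endocytosis, Nucb2, the precursor of nesfatin, Angptl7, a secreted angiopoietin-like protein, Rab32, a small GTPase of organelle biogenesis, Ccdc3, Ifi202b, an interferon-inducible gene, and AF067061 were higher in CM than in ES-LIF(+), by 1.43, 0.99, 0.98, 1.25, 0.87, 3.76 and 1.47 on the log2 scale. The probe sets of Prelp, Anxa8, Ndrg1, Ifi202b, Upk3b, Procr, Hspa1b, AF067061 and Sbsn are the 9 that the array design marks as able to read related transcripts, and their gene assignment is less certain.

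The course after CP could be tested as CM against ES-LIF(+), which asks whether a gene returned to its starting level. All 76 genes were among the 13145 tested, because their CP signal alone passes the filter on dim probe sets. In CM 53 of the 76 were higher than in ES-LIF(+), 69.7%, where 25.8% of all tested genes were higher, and 4 were lower, 5.26%, where 23.9% of all were lower. The median log2 difference of the 76 genes was 1.16 and that of all tested genes 0.06. These shares are not on an equal footing. The genes entered by a CP signal that had to exceed both stages compared, and 38 of them were dim in ES-LIF(+). Among the 24 members above the array median on all 12 arrays, 11 were higher, 45.8%, and 4 lower, 16.7%, where 22% and 27.5% of the 9405 genes under that filter were. With each array centred on its median, 43 of the 76 were higher, 56.6%, and 4 lower, where 17.5% of all tested genes were higher and 35.2% lower, and the median was 0.84 for the 76 and -0.26 for all. The arrays of CM have brighter median probe sets than those of ES-LIF(+), by 0.32 on the log2 scale. The lower 4 were Hmox1, Crip1, Crabp1 and Pga5, and the other 19 genes did not pass. The count of 4 became 1 without CM replicate 1 and 2 without ES-LIF(+) replicate 1, with 23.8% of all tested genes lower in each case.

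The largest rises in CM over ES-LIF(+) were those of S100a4, Dcn, Upk3b, Ccdc80 and Mgp, with log2 differences of 5.60, 4.89, 4.50, 4.30 and 4.05. All are genes whose ES-LIF(+) signals were close to background, so that these sizes depend on the added 16. Measured within a gene, the part of the log2 rise between ES-LIF(+) and CP that was still present in CM had a median of 42.6% over the 76 genes, with quartiles at 14.1% and 56.4%. It ran between -64.7% for Hmox1, whose CM level was below the start, and 80.5% for Upk3b. The rule caps this share, since CM had to lie at least 1 log2 unit below CP. The cap is lower for genes with a smaller rise, so these shares and the order of genes by them partly follow from the rule. The CP signal was at least 4 times the CM signal for 24 genes. In the scatter of induced genes the 76 lie below the main band over the whole range of CP rises.

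**Figure D3:**
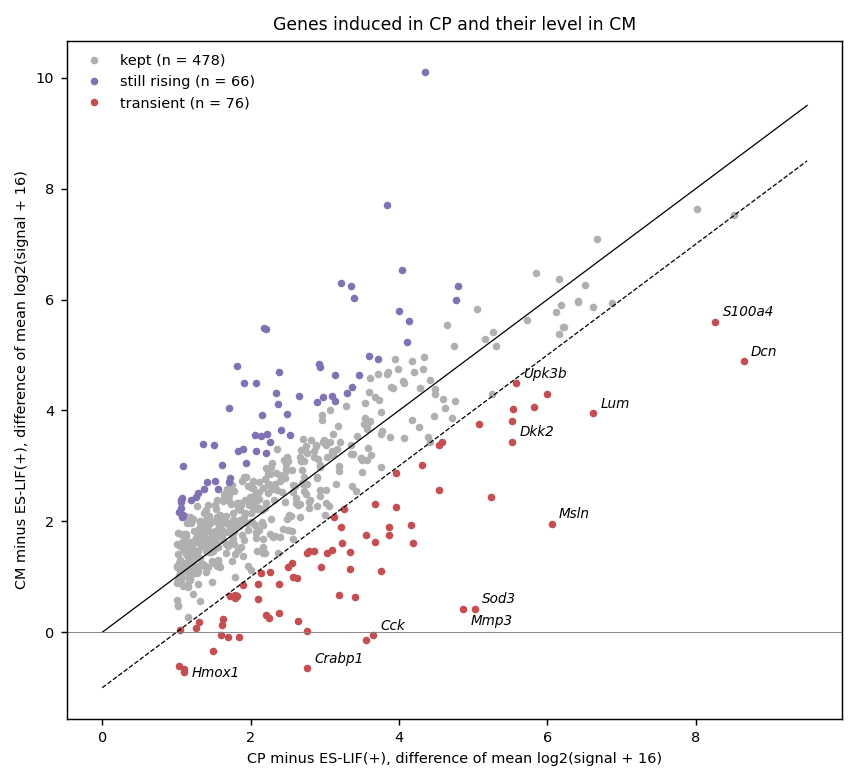
Each point is 1 of the 620 genes induced in CP, with the difference of mean log2(signal + 16) between CP and ES-LIF(+) on the x axis and that between CM and ES-LIF(+) on the y axis. The solid line marks equal levels in CP and CM and the dashed line a CM level 1 log2 unit below CP. The 76 transient genes lie on or under the dashed line by selection, 478 kept genes lie within 1 unit of the solid line and 66 still rising genes lie above.

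Removal of LIF for 48 h, before any cocktail, moved fewer of these genes. In ES-LIF(-) 14 of the 76 were higher than in ES-LIF(+), 18.4%, where 4.15% of all tested genes were higher, and 3 were lower, 3.95%, where 3.86% of all were lower. The count of 14 fell to 7 without ES-LIF(-) replicate 1 (3.34% of all tested genes). It fell to 9 when genes were read as the mean of their probe sets (3.16% of all). It was also 9 when the fit held only the 6 arrays compared (3.81% of all). The count of 3 became 5 without ES-LIF(-) replicate 2 (3.81% of all). The median log2 difference was 0.08, against 0.03 over all tested genes, and 59 of the 76 passed in neither direction.

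Decorin had the largest rise without LIF. It read 119, 97.6 and 111 in ES-LIF(-) and 70.4, 11.1 and 17.4 in ES-LIF(+), without overlap (log2 difference 1.55 ± 0.29 (SE), adjusted p = 0.00191). Tgfbr3 read 266, 248 and 327 in ES-LIF(-) and 103, 157 and 93.2 in ES-LIF(+) (log2 difference 1.17 ± 0.19 (SE), adjusted p = 0.000502), and Krt7 read 109, 132 and 126 in ES-LIF(-) and 70.9, 25.6 and 60.8 in ES-LIF(+) (log2 difference 1.08 ± 0.26 (SE), adjusted p = 0.00949). These groups did not overlap for any of the 3 genes. Dnm1 was higher by 0.92 ± 0.28 (adjusted p = 0.0333), though its call was lost under 11 of the alternatives tried, and Selenop by 0.79 ± 0.12 (adjusted p = 0.000258). Itm2a, Serpinf1, Pla2g4a, Cd34, Mgst1, Cebpb, Thy1, Col2a1 and Pdpn rose by 0.60 to 0.79. Serpinf1 lost its call on its second probe set, where the difference was -0.16.

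The genes lower without LIF were Col6a1, Pga5 and Cd53. Pga5 read 131, 159 and 147 in ES-LIF(-) and 349.5, 419 and 475 in ES-LIF(+) (log2 difference -1.41 ± 0.15 (SE), adjusted p = 1.48e-05). Col6a1 read 9.2, 18.1 and 84.3 in ES-LIF(-) and 108, 88.5 and 115 in ES-LIF(+), dim at both stages (log2 difference -1.44 ± 0.34 (SE), adjusted p = 0.00896). Cd53 read 17.5, 18.2 and 4.4 in ES-LIF(-) and 52.7, 42.9 and 25.5 in ES-LIF(+) (log2 difference -0.95 ± 0.30 (SE), adjusted p = 0.0431), near background throughout. The CM and ES-LIF(-) comparisons share the ES-LIF(+) arrays, so their results for a gene are not independent.

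In the gene lists with at least 4 genes induced in CP, the transient share of those genes was highest in the mesothelial list, with 6 of 10, and 0 in several others, where it was 12.3% over all induced genes. Numbers in each list were small, and the lists were chosen with earlier results of these data known, so these shares are descriptions. Of the 76 genes 41 were in at least 1 of 38 lists and 35 in none. The fibroblast and mesenchyme markers had 6 of 16 (Thy1, Dcn, Lum, S100a4, Cd34 and Mfap5), antioxidant and detoxification enzymes 3 of 7, and adhesion molecules 3 of 13. Chemokines had 2 of 6, serpins and the plasminogen system 2 of 7, and prostaglandin enzymes 2 of 4. No transient gene was found among 9 induced genes of smooth muscle, of which Actg2, Tagln, Myl9, Tpm1 and Des were still rising, nor among 6 lysosomal enzymes, 7 guidance genes, 6 ADAM and ADAMTS proteases or 4 TNF receptors. The bars by list show these counts.

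**Figure D4:**
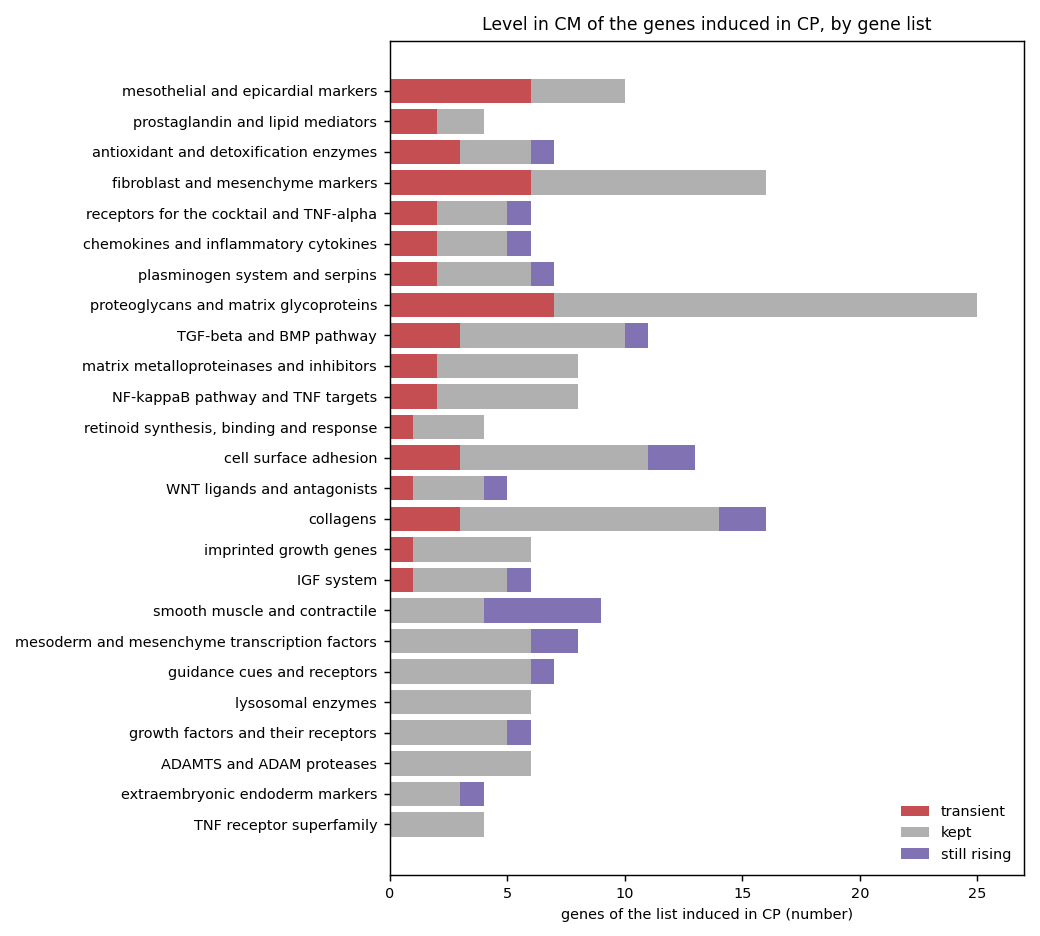
Bars give, for each gene list with at least 4 genes induced in CP, the number of those genes that were transient, kept or still rising in CM. The mesothelial list has 6 transient genes of 10, while the smooth muscle list has 0 of 9 and 5 still rising.

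Some of the 76 genes lie side by side in the genome. In the RefSeq order of protein-coding genes, 5 pairs of members had at most 2 genes between them, 10 genes in all. How often other genes of the arrays lie that close was not counted, so the pairs are a description. Prelp and Fmod are adjacent, and so are Dcn and Lum. Kera and Epyc, leucine-rich proteoglycan genes beyond Lum, were dim throughout, with 14.3 ± 4.45 and 45.1 ± 25.9 in CP, and Optc next to Prelp had 57.1 ± 42.8. Between Mmp3 and Mmp10 lies Mmp1a, with 54.8 ± 20.8 in CP. Between Ccl7 and Ccl8 lie Ccl11 and Ccl12, with 45.7 ± 10.1 and 4.03 ± 1.88 in CP, while Ccl2 on the other side of Ccl7 read 2283 ± 193 in CP and 1157 ± 48.2 in CM and missed the margin with 0.97.

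In the S100 cluster neighbours differed in course. S100a4 averaged 17410 ± 958 in CP and 2740 ± 94.6 in CM, and S100a16 also passed the limit. S100a6 averaged 3213 ± 454 in ES-LIF(+), 22240 ± 2702 in CP and 16380 ± 2467 in CM, and S100a13 219 ± 92.2 in ES-LIF(+), 1424 ± 129 in CP and 1421 ± 63.8 in CM. The CM means of both were within 1 log2 unit of their CP means. S100a3, between the members, read 63.8 ± 45.6 in CP and 94.3 ± 32.4 in CM.

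**Figure D5:**
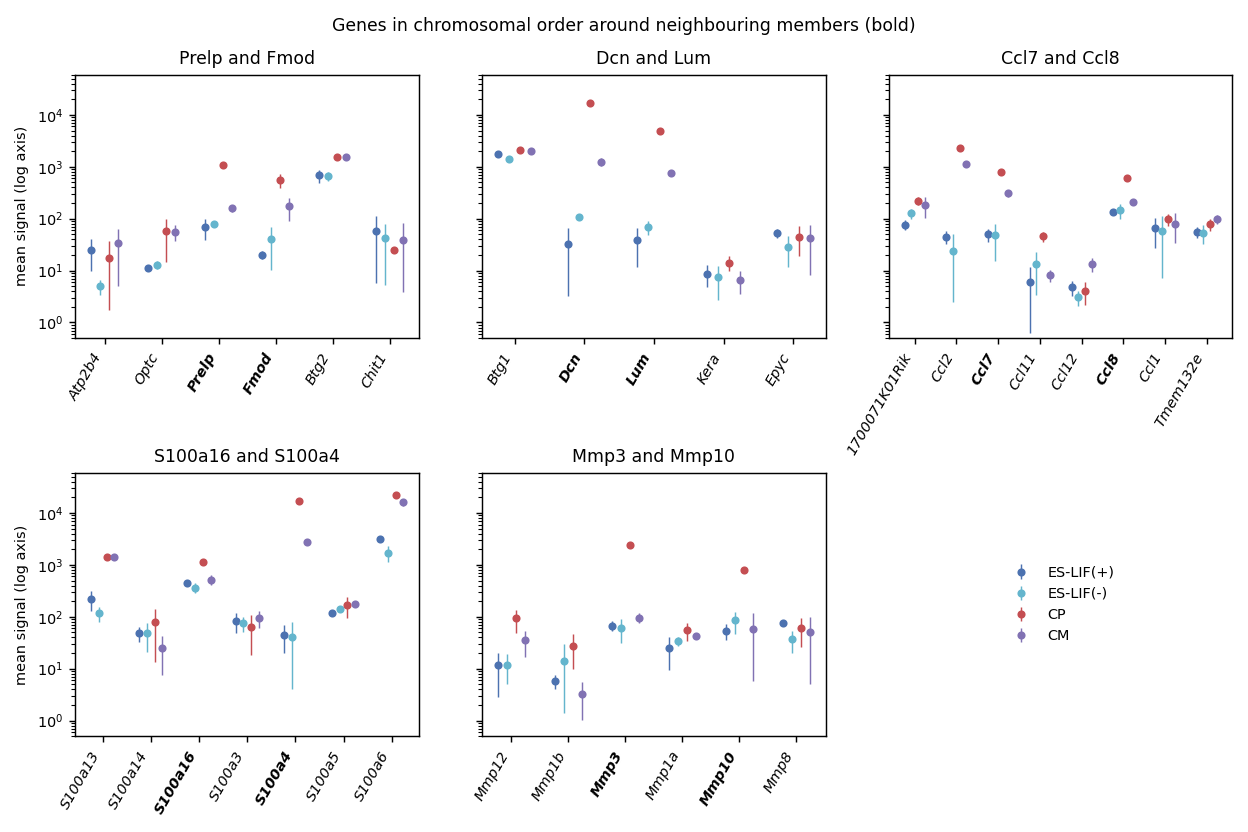
Mean signal on a log axis at 4 stages for genes in chromosomal order around the 5 pairs of neighbouring members, whose names are bold. Error bars are SD over 3 arrays, with lower ends cut short where they would leave the log axis. Dcn and Lum peak together beside dim Kera and Epyc, and S100a6 and S100a13 stay within 1 log2 unit of CP in CM while S100a4 does not.

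Further probe sets of the same genes, which the selection did not use, gave the same measurement by other stretches of the transcript on the same arrays. The 76 genes had 49 further probe sets, for 32 genes, and 47 of the 49 had their highest mean signal in CP. A margin of at least 1 was reached by 35, and by 23 of the 27 with a CP signal of 500 or more. Over all genes, 33 of 3731 further probe sets that bright reached it, the 23 of the group included. The counts of 47 and 35 have no count over all genes beside them. These probe sets read the same RNA of genes chosen for a CP peak, so they are no independent support. The second Sod3 probe set read 12.2 in ES-LIF(+), 10.7 in ES-LIF(-), 543 in CP and 21.6 in CM. The exceptions among bright ones were probe sets of Slc48a1, Tgfbr2, Upk1b and Eps8, with margins of 0.69, 0.82, 0.75 and 0.94. Dimmer probe sets of Dcn, Cd53, Cebpd, Tgfbr3, Osmr, Mfap5, Pcdh19 and Dnm1 also missed a margin of 1. Their margins were 0.20, 0.23, 0.47, 0.60, 0.61, 0.79, 0.81 and 0.86. The 2 probe sets without their highest mean signal in CP were dim too and missed it. They were a Tgfbr2 probe set with means of 21.8 in CP and 50.2 in CM and a Mgst1 probe set with 35.4 in CP and 37.2 in CM.

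Genes close to the limits show how sharp the selection is. Just inside the margin were Nod1 with 1.02, Procr with 1.03 and Pga5 with 1.03, and just outside were Lox with 0.99, Lmcd1 with 0.99 and Ccl2 with 0.97. Lox, the enzyme that crosslinks collagen, averaged 17910 ± 1018 in CP and 9045 ± 746 in CM. Just above the CP signal of 500 were Cck with 509, Angptl7 with 516 and Rab32 with 520.1, and just below it were Krt6a with 495.5, Mfap4 with 494 and Hoxa10 with 450.3.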

How the data were processed

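Total RNA of 4 stages was hybridized by the authors to 12 arrays. The deposited values are intensity signals per probe set on a linear scale, made by the authors with MAS 5.0 software, and no detection calls were used here. The trimmed mean signal was 496 or 497 on every array (2% cut from each end) and the median 101 to 144, so the authors' scaling was kept. After 64 control probe sets were set aside, 34945 of 45037 probe sets named 1 gene, 932 several and 9160 none, by the platform annotation. Signals were used as log2(signal + 16). A gene was tested when its probe set exceeded the array median on at least 3 of 12 arrays, which 13145 of 18193 genes did. Such fold changes understate the change of dim genes.

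All 12 arrays were fitted with limma 3.58.1 in R 4.3.3, with an intensity trend, and p-values of each comparison were adjusted over all tested genes by the Benjamini-Hochberg method. The procedure was tested on simulated data. The genes and lists were chosen with earlier results of these data known. Named are the 12 genes with the largest margins, the 12 brightest in CP, the 5 largest rises and falls called in each comparison, those nearest the limits, and all in a list, and the rest were named to account for every member. Alternatives were another scaling, pseudocount, probe set choice, filter, test, fold, replicate block, and leaving out each array. Promoters and gene order are from RefSeq (GRCm38.p6), and all 76 genes were found in its gene table. The number of arrays limits the precision.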

Additional observations from a re-analysis of the deposited data

How the results depend on the processing

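The rule took 72 to 77 genes when 1 array was left out, 41 with a margin of 1.5 and 41 with a CP signal of 1000. It took 70 with median centring, of which 67 were among the 76 (lost were Cebpb, Cebpd, Col2a1, Crip1, Hmox1, Nod1, Pdpn, Pga5 and Selenop), 75 with quantile normalization (72 shared) and 66 with the mean over probe sets (64 shared). In CM against ES-LIF(+) the count of higher genes was 49 to 53 without 1 array (24% to 26.2% of all tested genes). It was 43 with median centring (17.5% of all). It was 11 of 24 genes when all 12 arrays had to exceed the array median (22% of all). That filter drops genes dim in the stem cells. The count of lower genes was 1 to 4 without 1 array (23.4% to 24.4% of all). It was 2 with pseudocount 64 (22.6% of all) and 0 at a fold of 2 (12.8% of all). The median difference was 1.12 to 1.27 without 1 array, 0.84 with median centring and 0.87 with quantile normalization. In ES-LIF(-) against ES-LIF(+) the count of higher genes was 7 to 14 without 1 array (3.34% to 4.29% of all). It was 9 with the mean over probe sets (3.16% of all) and 8 of 24 with the filter on all 12 arrays (4.09%). It was 9 with the 6 arrays compared (3.81%) and 3 at a fold of 2 (1.41%). The count of lower genes was 2 to 5 without 1 array (3.5% to 3.92% of all). It was 1 with the filter on all 12 arrays (3.82%) and 1 with the 6 arrays compared (3.55%). The median was -0.03 to 0.10 without 1 array. The cause of these shifts was not tested except where stated. Serpinf1 turned to -0.16 in ES-LIF(-) on its most variable probe set. For the 54 genes named by rule, 2464 of the recomputed differences kept direction and call, 113 lost the call, 10 gained it and 1 reversed.

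Replicate numbers gave at most a weak pairing, seen between the stem cell stages. Same-numbered ES-LIF(+) and ES-LIF(-) samples correlated at 0.1, 0.079 and 0.066, and other-numbered samples of these stages between -0.087 and 0.012. Over all stages, deviations of same-numbered samples correlated between -0.061 and 0.1 over 18 pairs, and those of other numbers between -0.087 and 0.049 over 36. With the replicate block the counts were 53 higher and 4 lower in CM and 14 higher and 3 lower in ES-LIF(-), as without it, with medians of 1.16 and 0.08. Depth on arrays is signal over background, and 38 of the 76 genes were under the array median in ES-LIF(+).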

Other observations

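Genes with the same course but a dimmer CP signal were left out by the limit of 500. With a limit of 250 the rule takes 106 genes, and the 30 added are given as values with no test. They include epithelial genes, with Krt5 averaging 406 ± 106 in CP and 150.1 ± 99.3 in CM and Krt6a 496 ± 112 in CP and 214 ± 60.6 in CM (SD, n = 3 each). Gkn1, the gastrokine related to Gkn2, averaged 363 ± 94 in CP and 18.8 ± 13.4 in CM. Xdh, xanthine dehydrogenase, averaged 290.1 ± 61.9 in CP and 7.67 ± 2.5 in CM, Tslp, an epithelial cytokine, 359.8 ± 43.2 in CP and 50.5 ± 18.4 in CM, and Aqp5, a water channel of secretory epithelia, 407 ± 28.7 in CP and 37.2 ± 22.6 in CM. Hoxa10 and Hoxc10 averaged 450.3 ± 42.1 and 262 ± 15.1 in CP, against 124 ± 28.5 and 100.2 ± 25.8 in CM. Sox1, a neural transcription factor, averaged 117 ± 71.4 in ES-LIF(+), 145 ± 61.1 in ES-LIF(-), 346 ± 35.8 in CP and 5.47 ± 1.3 in CM.

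A further 8 genes outside the group had a second probe set within both limits while their brightest one missed the margin, namely Frzb, Lox, Tnfaip2, Col3a1, Prrx1, Igfbp4, Steap1 and Bgn. For Bgn the margins were 1.02 on the second probe set and 0.75 on the brightest, and for Col3a1 1.25 and 0.92. In addition 10 probe sets that name several genes and 9 that name none were within both limits and were not assigned to a gene.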
